A study of Homo sapiens with 18 samples.

Results

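HKC-8 is an immortalised human renal tubule cell line, and the comparison described here is that of its hypoxic with its normoxic transcriptome. All RNA-seq samples labelled HKC8 were taken, 3 normoxic (N1, N2 and N3) and 3 hypoxic (H1, H2 and H3), which make 6 of the 18 samples of the series. The series profiled polyA RNA from kidney and liver cell lines to relate hypoxic expression to genome-wide binding of hypoxia-inducible factor (HIF). Hypoxic cells were labelled 0.5% oxygen for 16 h, although the titles of the hypoxic samples give 0.1%. For normoxic cells the 21% oxygen is given by the sample titles. The labels name no genetic change or drug in either group, and both grew in the same serum-containing medium. Nothing in the labels says that replicates were separate cultures, so p-values measure only the spread between these samples, which may be technical. The line stands for the tubule only as 1 immortalised cell line without vessels or stroma.

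HIF is a transcription factor of an oxygen-labile alpha subunit, HIF1A or EPAS1 (HIF-2α), and a stable partner, ARNT. In oxygen, prolyl hydroxylases of the EGLN family mark the alpha subunits for destruction by VHL, and low oxygen stops this, so that the dimer binds DNA at a short core sequence and raises transcription. The renal tubule relies largely on mitochondrial oxidation to drive reabsorption, and its hypoxia is known from acute and chronic kidney injury, where glycolysis, secreted vascular signals and matrix enzymes are studied as its responses.

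Values are CPM, the counts of a gene over the library total scaled by TMM, fold changes are hypoxia over normoxia on the log2 scale with their standard error (SE), and a gene was called at an adjusted p under 0.05 in edgeR's quasi-likelihood test without pairing of the samples. Rose and fell are used only of called genes. The libraries held 75441764 to 97984260 counts, and 15294 to 15783 genes had a count. In this comparison 1522 genes rose, which is 11.2% of the 13536 tested, and 1235 genes fell, which is 9.12%. With the replicate number as a block, in which each hypoxic sample was set against the normoxic one of its own number, 2836 genes (21%) rose and 2919 (21.6%) fell. All 2757 genes called without the block were called in the same direction with it. With 5 samples in place of 6, 687 genes rose and 326 fell without N1, 750 and 342 without H1, 933 and 522 without N2, and 1037 and 675 without H3. The median change of the genes that rose was 0.73 and that of the genes that fell was -0.42. At least 2-fold, 536 genes (3.96% of those tested) rose and 31 (0.229%) fell. Some of the 536 had almost no counts in normoxia. Where at least 10 counts in every sample were required, 437 rose and 26 fell at least 2-fold. The response thus held a large arm of strong inductions and an arm of shallow reductions that was nearly as broad. Every hypoxic sample lay above every normoxic one for 20% of the genes tested, and below for 19.1%. The median over all genes tested was 0.00358. In bulk samples, a difference in the number of cells and a difference in RNA per cell cannot be told apart.

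Members of 52 gene lists were counted to describe which functions moved. The share of each list that rose or fell is plotted beside the share of all genes. List counts without the block are to be read beside 11.2% and 9.12% of all genes. Those with the block are to be read beside 21% and 21.6%.

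**Figure D1:**
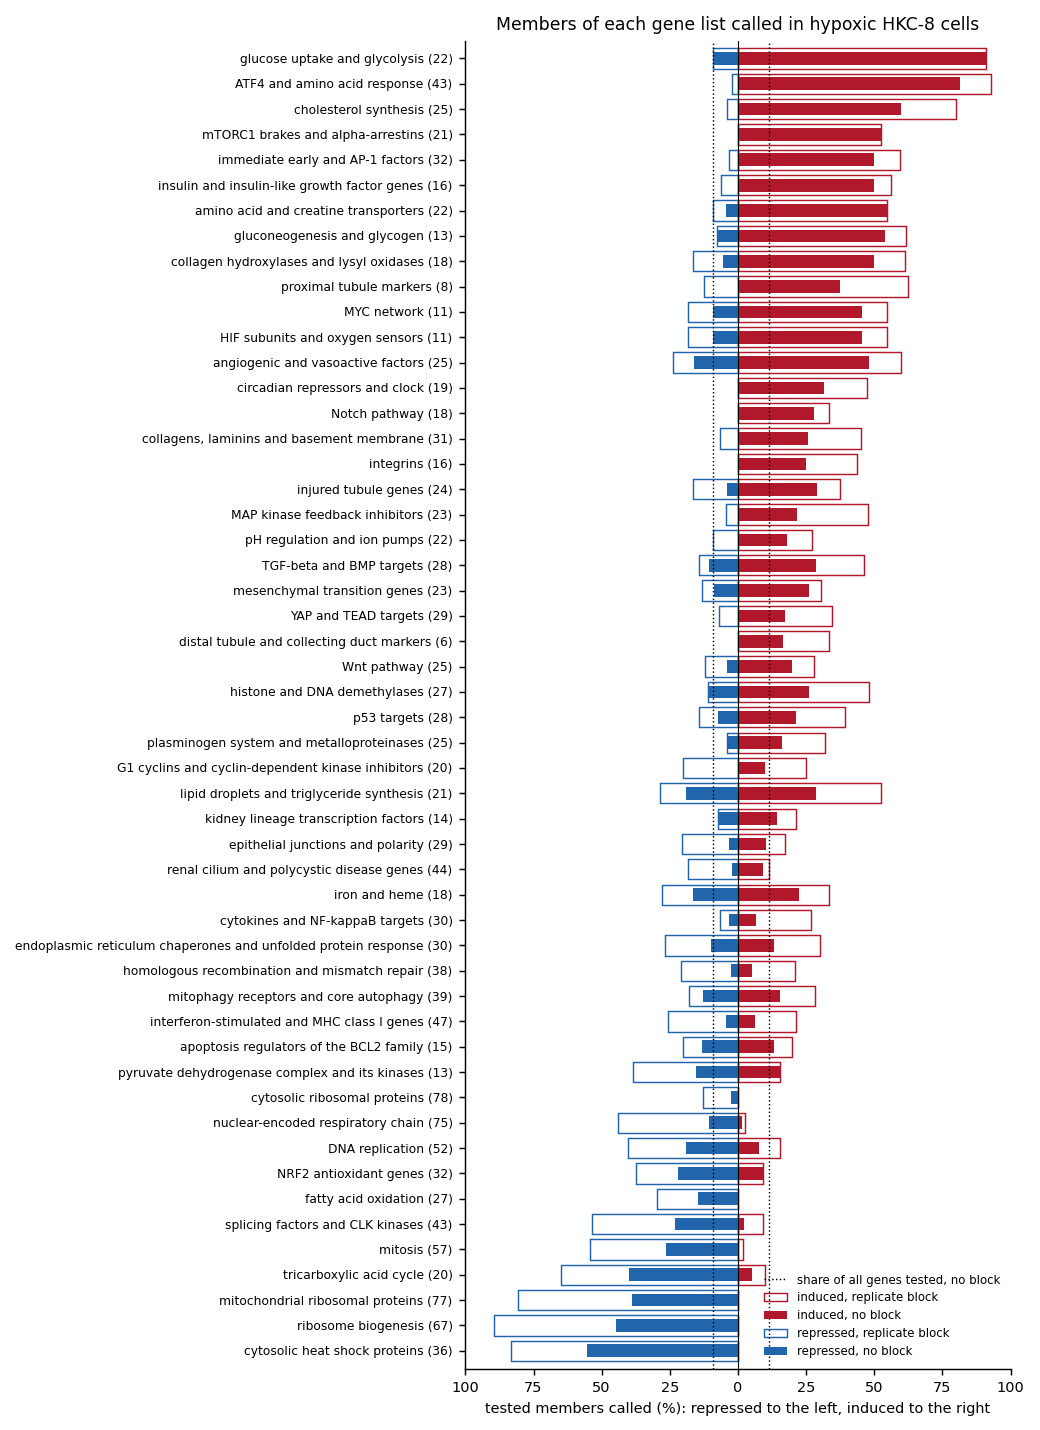
Bars give the percentage of tested members of each of 52 gene lists that rose (to the right) or fell (to the left) in hypoxic HKC-8 cells, with the number tested in brackets. Filled bars are calls without the replicate block, outlines calls with it, and dotted lines the shares of all genes tested, 11.2% and 9.12%. Glycolysis and the ATF4 list extend furthest to the right, and ribosome biogenesis and cytosolic heat shock proteins furthest to the left.

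Short promoter stretches are shown for a glycolytic enzyme, a surface enzyme and a mitochondrial protein whose RNA changed widely, because each holds the core letters to which HIF is known to bind. They come from the RefSeq promoter table (GRCh38.p14), whereas the deposited counts used GRCh37. Capitals mark ACGTG on either strand, searched in the 250 bases before the start of the gene. These letters are in 18.5% of all 35116 promoter windows of the table. The PGK1 stretch is X:78104050-78104084 (plus strand, match 183 bases before the start), the CA9 stretch is 9:35673895-35673927 (plus strand, 18 bases before) and the BNIP3 stretch is 10:131982037-131982071 (minus strand, 133 bases before, a palindrome read on both strands). A match describes letters only, and whether HIF binds there was not tested.
PGK1: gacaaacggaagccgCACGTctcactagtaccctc
CA9: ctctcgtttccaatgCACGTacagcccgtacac
BNIP3: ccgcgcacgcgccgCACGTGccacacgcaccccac

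In the oxygen-sensing system itself, the RNAs of the alpha subunits moved apart. Protein was not measured here, and the study's immunoblots of HKC-8 cells showed HIF-1α and HIF-2α protein both induced by hypoxia. HIF1A (chromosome 14, 62162231-62214977, plus strand, GRCh37) had 395, 379 and 351 CPM in normoxia and 169.4, 160.4 and 173 CPM in hypoxia. All hypoxic samples lay below every normoxic one, and HIF1A RNA fell (log2 fold change -1.16 ± 0.08, adjusted p = 3.6e-05). EPAS1 had 73.1, 69.7 and 82.2 CPM in normoxia and 210.1, 152 and 166 CPM in hypoxia, and rose (log2 fold change 1.23 ± 0.12, adjusted p = 0.000366). ARNT, the common partner, gave -0.23 (adjusted p = 0.142), and was called lower only with the replicate block (adjusted p = 0.00817). Of the hydroxylases, EGLN1 rose (log2 fold change 1.12 ± 0.08, adjusted p = 5.33e-05) and EGLN3 rose from 1.66, 1.57 and 2.16 to 10.6, 8.61 and 8.92 CPM (log2 fold change 2.38 ± 0.18, adjusted p = 5.73e-05). Both are known products of HIF activity that oppose it. Of the 11 tested members of 12 listed, 5 rose and 1 fell, against 6 and 2 with the block.

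Glucose handling showed the most complete change of any list. Of 22 tested genes of glucose uptake and glycolysis, 20 rose and 2 fell, at a median of 0.98. SLC2A1, the main glucose transporter of hypoxic cells, had 60.5, 57.8 and 47.5 CPM in normoxia and 200.1, 220.4 and 195 CPM in hypoxia (log2 fold change 1.89 ± 0.11, adjusted p = 9.65e-06). HK2, which traps glucose as its phosphate, had 121, 138 and 78.4 CPM in normoxia and 300.4, 352 and 299.8 CPM in hypoxia (log2 fold change 1.49 ± 0.18, adjusted p = 0.00112). PFKFB4, which makes the activator of phosphofructokinase, had 18.2, 22.6 and 23 CPM in normoxia and 175, 153 and 154 CPM in hypoxia (log2 fold change 2.92 ± 0.11, adjusted p = 1.8e-06). For each of these genes the lowest hypoxic sample lay above the highest normoxic one. Further down the pathway PGK1 (chromosome X, 77166236-77384792, plus strand), whose promoter stretch is given above, had 717, 729.8 and 706 CPM in normoxia and 2645, 2588 and 2363 CPM in hypoxia (log2 fold change 1.82 ± 0.08, adjusted p = 5.11e-06). The enolase ENO2 rose by 2.36 ± 0.12, and LDHA, which turns pyruvate into lactate, by 1.47 ± 0.09 (adjusted p = 7.63e-06 and 2.08e-05). SLC16A3, which exports lactate, rose as well (log2 fold change 1.19 ± 0.15, adjusted p = 0.00111). Both members that fell are other isoforms of steps that rose. PFKM, the muscle-type phosphofructokinase, had 192, 208 and 176 CPM in normoxia and 124, 139 and 127 CPM in hypoxia (log2 fold change -0.56 ± 0.09, adjusted p = 0.00356), and PFKFB2 fell by 0.65 on the log2 scale (adjusted p = 0.0147, and 0.0713 without H1). The 20 inductions were called at 17 to 20 when any single sample was left out. Several of these enzymes have processed pseudogenes, and removal of reads that did not map uniquely may lower their levels in all samples alike.

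Among regulators of pyruvate dehydrogenase, RNA of the kinases PDK1 and PDK3 rose. PDK1, which switches off pyruvate dehydrogenase, had 39.1, 30.5 and 35.4 CPM in normoxia and 155, 144 and 184 CPM in hypoxia (log2 fold change 2.20 ± 0.12, adjusted p = 9.65e-06), and PDK3 rose by 1.17 ± 0.15 (adjusted p = 0.00118). Of the 13 genes of the complex and its regulators, 2 rose and 2 fell (15.4% each), against 2 and 5 with the replicate block. Of all genes, 11.2% rose and 9.12% fell without the block. The number that fell was 0 without N1, 0 without N2, 0 without H1 and 1 without H3.

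Genes of mitochondrial oxidation leaned downward with small changes. Of 20 genes of the tricarboxylic acid cycle, 1 rose and 8 fell, against 2 and 13 with the replicate block, at a median of -0.24. SDHD, an anchor subunit of succinate dehydrogenase, had 124, 124 and 132 CPM in normoxia and 91.8, 98.5 and 95.3 CPM in hypoxia (log2 fold change -0.41 ± 0.07, adjusted p = 0.00531). IDH2, the mitochondrial NADP-linked isocitrate dehydrogenase, went the other way, from 13.9, 12.4 and 19.4 to 33.7, 35.9 and 33.8 CPM (log2 fold change 1.18 ± 0.16, adjusted p = 0.0017). In the nuclear-encoded respiratory chain, 8 of 75 tested genes fell and 1 rose, against 33 and 2 with the replicate block, at a median of -0.15. Thus the share that fell without the block was close to the 9.12% of all genes. Members that fell included NDUFV2 of complex I (-0.42, adjusted p = 0.00444) and ATP5G1 of the ATP synthase, which had 77.5, 83.9 and 76.1 CPM in normoxia and 50.2, 61.2 and 45.7 CPM in hypoxia (log2 fold change -0.60 ± 0.11, adjusted p = 0.0074). The 1 member that rose, NDUFA4L2, had 6, 0 and 2 counts in normoxia and 14, 32 and 30 in hypoxia. It passed the filter on low counts only through its hypoxic samples and was not called without H3. The number of respiratory chain genes that fell was 2 without N1, 2 without N2, 2 without H1, 22 without H2 and 2 without H3, and that of cycle genes 1 without N1, 2 without N2, 2 without H1 and 2 without H3.

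Mitochondrial ribosomal proteins, which translate the proteins encoded in mitochondrial DNA, were called in 1 direction. Of 77 tested members of 79 listed, 30 fell and none rose, and with the replicate block 62 fell and none rose. The median was -0.31. MRPL1 had 28.6, 23.5 and 23.4 CPM in normoxia and 16.9, 15.2 and 15.8 CPM in hypoxia (log2 fold change -0.66 ± 0.11, adjusted p = 0.00534). Within the pairs of equal number, 74, 74 and 72 of the 77 members were lower in the hypoxic sample. Calls without the block depended on the samples, since the number that fell was 7 without N1, 14 without N2, 9 without H1, 46 without H2 and 17 without H3. Fatty acid oxidation had no induced member of 27 tested and 4 that fell, against 8 with the block. The isomerase ECI2 was among those that fell (log2 fold change -0.52 ± 0.07, adjusted p = 0.00155). Fatty acid genes that fell numbered 2 without N1 and 2 without H1.

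Genes that store glucose as glycogen rose at several steps. Of 13 tested genes of gluconeogenesis and glycogen of 16 listed, 7 rose and 1 fell. PGM1, which links glucose phosphates to glycogen, had 13, 10.9 and 11.7 CPM in normoxia and 64.3, 57.9 and 50.2 CPM in hypoxia (log2 fold change 2.27 ± 0.12, adjusted p = 7.09e-06). PPP1R3C, which brings a phosphatase to glycogen and so activates its synthesis, had 10.2, 8.46 and 12.6 CPM in normoxia and 47, 40.4 and 44.4 CPM in hypoxia (log2 fold change 2.07 ± 0.15, adjusted p = 4.49e-05). Both went up in every hypoxic sample by a wide gap, and the synthase GYS1 (0.89 ± 0.10) and the branching enzyme GBE1 (1.14 ± 0.10) rose with them (adjusted p = 0.000912 and 0.00013). The 1 reduction was that of GYG1, which starts the glycogen chain (log2 fold change -0.29 ± 0.08, adjusted p = 0.0402). GYG1 lost its call without N1, N2, H1 or H3. PCK2, the mitochondrial enzyme that makes phosphoenolpyruvate, is described with the amino acid response below.

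Lipid genes changed in both directions. Of 21 tested genes of lipid droplets and triglyceride synthesis of 24 listed, 6 rose and 4 fell, against 11 and 6 with the replicate block. VLDLR, which takes up triglyceride-rich lipoprotein, had 17.3, 14.7 and 19.6 CPM in normoxia and 86.2, 75.2 and 76.3 CPM in hypoxia (log2 fold change 2.20 ± 0.12, adjusted p = 8.7e-06). HILPDA, which inhibits the lipase of lipid droplets, rose by 1.08 ± 0.10 (adjusted p = 0.000161), and the desaturase SCD by 0.88 ± 0.13 (adjusted p = 0.00243). ELOVL6, which elongates palmitate, had 35.9, 34.5 and 39.8 CPM in normoxia and 20.4, 19.7 and 18.7 CPM in hypoxia (log2 fold change -0.91 ± 0.09, adjusted p = 0.000414), and GPAM, which starts glycerolipid synthesis in mitochondria, fell (log2 fold change -0.75 ± 0.10, adjusted p = 0.00159). The number that rose was 3 without N1, and the number that fell was 2 without H1.

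Cholesterol genes rose as a group. Of 25 tested, 15 rose and none fell, against 20 and 1 with the replicate block, at a median of 0.48. Among the 19 that encode enzymes of the pathway, 10 rose and none fell, against 14 and 1. INSIG1, the sterol-sensing retention protein, had 84.5, 76.7 and 111 CPM in normoxia and 280.2, 165 and 196 CPM in hypoxia (log2 fold change 1.24 ± 0.20, adjusted p = 0.00403). All hypoxic samples lay above the normoxic ones, and H1 was the highest. HMGCS1 rose by 0.75 ± 0.15 (adjusted p = 0.00911) but was not called without N1 (adjusted p = 0.0509). The list median within the 3 pairs was 0.71, 0.47 and 0.26. Without N1, 9 genes rose.

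Amino acid stress genes held the most induced members of any of the 52 lists. ATF4 is a transcription factor that is translated when the initiation factor eIF2 is phosphorylated, and its targets import amino acids, make them and charge tRNAs. Of 43 tested members, 35 rose and none fell, against 40 and 1 with the replicate block, at a median of 0.84. ATF4 RNA itself had 387, 411 and 389.6 CPM in normoxia and 573, 533 and 593 CPM in hypoxia (log2 fold change 0.52 ± 0.08, adjusted p = 0.00308). TRIB3, a pseudokinase that restrains this response, had 25.3, 26.6 and 29.2 CPM in normoxia and 119, 95.4 and 110.2 CPM in hypoxia (log2 fold change 2.00 ± 0.10, adjusted p = 7.03e-06). ASNS, asparagine synthetase (chromosome 7, 97480989-97501854, minus strand), had 85.1, 103 and 244 CPM in normoxia and 466, 453 and 730.2 CPM in hypoxia (log2 fold change 1.93 ± 0.37, adjusted p = 0.00853). N3 and H3 were each the highest of their group for ASNS, so that the SE is wide without the block, and with the block the adjusted p was 1.87e-06. PCK2 showed the same arrangement, with 40.9, 47.5 and 91.5 CPM in normoxia and 188, 196 and 253 CPM in hypoxia (log2 fold change 1.82 ± 0.27, adjusted p = 0.00305). STC2, a secreted glycoprotein of stressed cells, rose by 2.14 ± 0.11 (adjusted p = 6.07e-06). The transcription factors ATF3 (1.34 ± 0.15, adjusted p = 0.000776) and DDIT3 (0.91 ± 0.19, adjusted p = 0.0112) rose as well, and DDIT3 was not called without N1 or H1 (adjusted p = 0.0574 and 0.054). Of the 12 aminoacyl-tRNA synthetases on the list 6 rose and none fell, against 11 and none with the block, with changes of 0.18 to 0.84.

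Amino acid transporters rose in part. Of 22 tested transporters of 23 listed, 12 rose and 1 fell, against 12 and 2 with the replicate block, at a median of 0.52. SLC7A11, which exchanges cystine for glutamate, had 62.2, 75.9 and 99.7 CPM in normoxia and 223, 203 and 230.1 CPM in hypoxia (log2 fold change 1.46 ± 0.15, adjusted p = 0.00044). SLC1A4, a neutral amino acid carrier, had 14.3, 13.8 and 23.8 CPM in normoxia and 63.8, 55.4 and 64.4 CPM in hypoxia (log2 fold change 1.82 ± 0.20, adjusted p = 0.000537). The creatine transporter SLC6A8 rose by 0.82 ± 0.13 (adjusted p = 0.00403). SLC25A12, the mitochondrial aspartate-glutamate carrier, was the member that fell, from 45.4, 45.7 and 46 to 24.3, 26.1 and 26.5 CPM (log2 fold change -0.84 ± 0.08, adjusted p = 0.000274), and 2 fell without H2.

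The chaperone arm of endoplasmic reticulum stress did not move as 1 block. Of 30 tested genes 4 rose and 3 fell (13.3% and 10%), against 9 and 8 with the replicate block. Without the block these shares were near the 11.2% and 9.12% of all genes. WFS1, a membrane protein of the reticulum, had 31.3, 28.3 and 24.8 CPM in normoxia and 67, 79.6 and 59.9 CPM in hypoxia (log2 fold change 1.29 ± 0.13, adjusted p = 0.000301), and EDEM1, which sends misfolded glycoproteins to degradation, rose by 0.63 ± 0.07 (adjusted p = 0.000765). The number that fell was 0 without N1, 1 without N2, 5 without N3, 0 without H1, 6 without H2 and 0 without H3.

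Ribosome production fell in 30 genes, as many as the mitochondrial ribosomal proteins. The 67 genes of ribosome biogenesis encode RNA polymerase I, processing factors and assembly factors of the nucleolus. Without the block those 30 of the 67 fell and none rose, and with it 60 fell and none rose, at a median of -0.40. POLR1E, a subunit of RNA polymerase I (chromosome 9, 37485945-37503694, plus strand), had 111, 124 and 82.7 CPM in normoxia and 49.9, 56.3 and 48.7 CPM in hypoxia (log2 fold change -1.04 ± 0.14, adjusted p = 0.00182). LTV1, an export factor of the small subunit, had 118, 119.6 and 86.4 CPM in normoxia and 61.6, 70.00 and 58 CPM in hypoxia (log2 fold change -0.77 ± 0.13, adjusted p = 0.00524). UTP14A, a processome component, had 91.1, 99.3 and 76.3 CPM in normoxia and 50.8, 61.4 and 56.2 CPM in hypoxia (log2 fold change -0.66 ± 0.11, adjusted p = 0.00521). For all of these the highest hypoxic sample was below the lowest normoxic one, which the naming rule requires of members picked for the size of their change. Over the list, the median difference from the normoxic mean was 0.07, 0.20 and -0.24 in normoxia and -0.49, -0.21 and -0.47 in hypoxia, so N3 lay below H2 and the groups overlapped. Within the pairs of equal number the median was -0.56, -0.41 and -0.22, and 67, 65 and 59 of the 67 genes were lower in the hypoxic sample. The number that fell without the block was 9 without N1, 14 without N2, 55 without N3, 9 without H1 and 16 without H3.

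Structural proteins of the cytosolic ribosome stayed closer to the middle. Of 78 tested members of 80 listed, 2 fell and none rose, and with the replicate block 10 fell and none rose, at a median of -0.07. The 2 that fell were RPL24 (-0.32) and RPS26 (-0.49). Neither was called without N1, N2, H1 or H3, and RPS26 has near-identical copies that make its counts uncertain. The share that fell was below the 9.12% of all genes.

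Cytosolic heat shock proteins fell in a larger share than any other of the 52 lists without the block. Of 36 tested members 20 fell and none rose, and 30 fell with the replicate block, at a median of -0.37. HSPA8 (chromosome 11, 122928197-122933938, minus strand), the constitutive HSP70, had 5005, 5320.2 and 4105 CPM in normoxia and 2534, 3581 and 2483 CPM in hypoxia (log2 fold change -0.75 ± 0.16, adjusted p = 0.0123). HSPA4, one of its exchange factors, had 634, 623 and 523 CPM in normoxia and 362, 401 and 358 CPM in hypoxia (log2 fold change -0.67 ± 0.10, adjusted p = 0.0027), and HSPH1, another, fell by 0.68 on the log2 scale (adjusted p = 0.0107). For these 3 genes H2 was the hypoxic sample nearest to normoxia. HSP90AA1, the inducible HSP90, had 7107, 6867 and 5587 CPM in normoxia and 5068, 5014 and 4023 CPM in hypoxia (log2 fold change -0.47 ± 0.13, adjusted p = 0.0316). All 8 subunits of the chaperonin that folds actin and tubulin were below 0, from -0.45 to -0.23, and 5 of them fell (8 with the block). HSPA1A, the stress-induced HSP70, had under 1 CPM in every sample, is nearly identical to HSPA1B and was not called (adjusted p = 0.102). Left-out samples gave 2 without N1, 8 without N2, 3 without H1 and 7 without H3. HSPA8 lost its call without N1 or H1 (adjusted p = 0.0576 and 0.0635), HSPH1 without N1 (0.0546), and HSP90AA1 had 0.13 without N1, 0.0774 without N2, 0.072 without H1 and 0.0892 without H3.

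**Figure D2:**
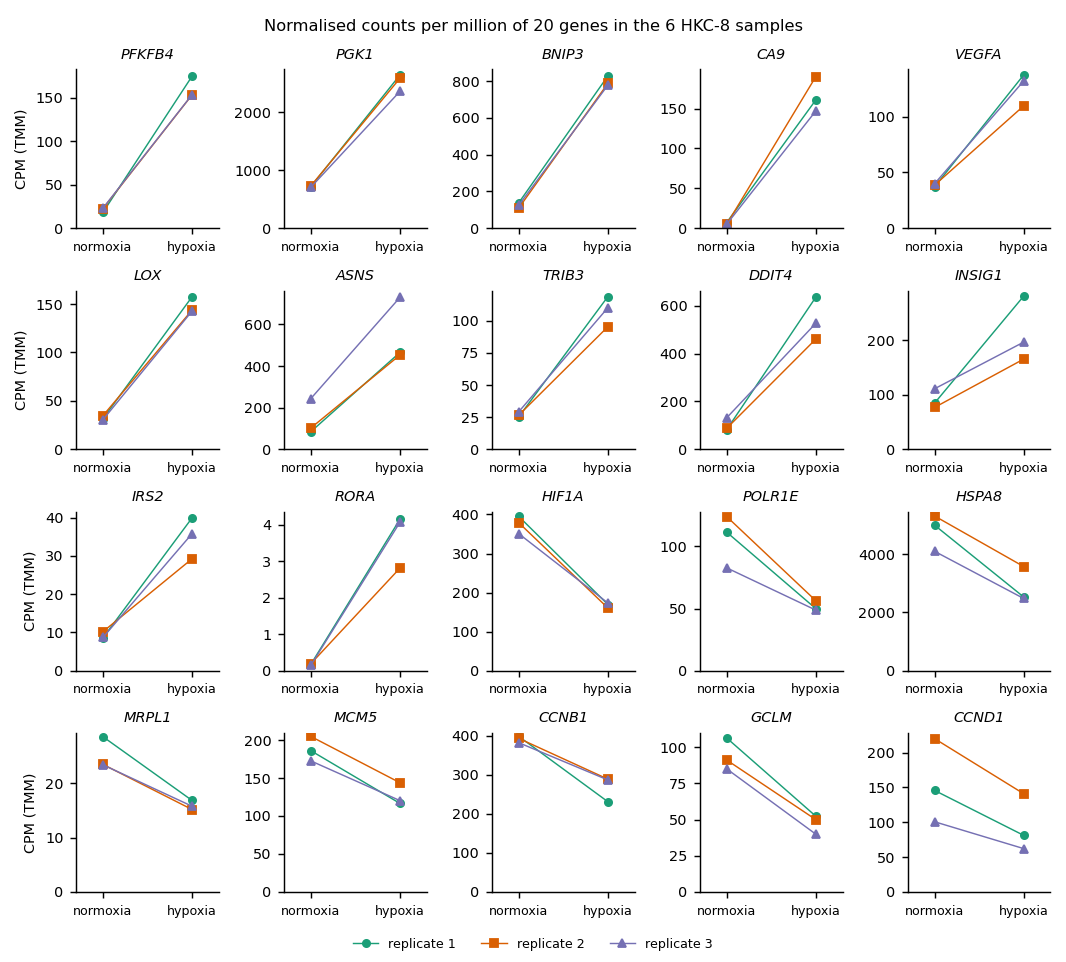
Panels give the TMM-scaled CPM of 20 genes in each of the 6 samples, with lines joining samples of the same replicate number and all vertical axes starting at 0. Genes from PFKFB4 to RORA rise and genes from HIF1A to CCND1 fall along every line, and for CCND1 the 3 lines run in parallel at different heights.

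Genes of cell division fell in part. Of 57 mitosis genes 15 fell and none rose, against 31 and 1 with the replicate block, at a median of -0.18. CCNB1, the mitotic cyclin, had 398, 393 and 382 CPM in normoxia and 231, 289 and 287 CPM in hypoxia (log2 fold change -0.54 ± 0.10, adjusted p = 0.00678). CDC20, which starts anaphase, had 324, 383 and 302 CPM in normoxia and 168.8, 244 and 215 CPM in hypoxia (log2 fold change -0.68 ± 0.14, adjusted p = 0.0111). MKI67, a marker of cycling cells, had 452, 504 and 414 CPM in normoxia and 511, 566 and 576 CPM in hypoxia and was not called (0.27 ± 0.10, adjusted p = 0.0735), whereas the block called it higher (adjusted p = 0.00942). Of 52 DNA replication genes 10 fell and 4 rose, against 21 and 8 with the block. MCM5 of the replicative helicase had 186, 205 and 173 CPM in normoxia and 117, 144 and 120.2 CPM in hypoxia (log2 fold change -0.57 ± 0.10, adjusted p = 0.00691), and the primase subunit PRIM2 fell by 0.57 on the log2 scale (adjusted p = 0.00366). E2F7, a repressor of E2F targets, was one of the 4 that rose (log2 fold change 0.76 ± 0.11, adjusted p = 0.00255). Members that fell numbered 4 without N1 and 4 without H1 for mitosis, and 6 without N1, 6 without N2 and 6 without H1 for replication, whose inductions numbered 1 without N1, 1 without N2 and 1 without H1.

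CCND1 shows how the pairing bears on a value. This cyclin of the G1 phase had 146, 220.2 and 101 CPM in normoxia and 81.2, 141 and 62.2 CPM in hypoxia. The groups overlapped, with replicate 2 high and replicate 3 low in both, and the change of -0.71 ± 0.32 was not called (adjusted p = 0.149). Within pairs every hypoxic sample was lower, and with the block the change was -0.73 (adjusted p = 1.23e-05). FOSL1, a subunit of the transcription factor AP-1, had the same order of samples, with 40.1, 63.9 and 23.5 CPM in normoxia and 20.7, 35.9 and 15.2 CPM in hypoxia, an adjusted p of 0.147 without the block and of 3.1e-05 with it. Of 20 tested G1 cyclins and inhibitors 2 rose and none fell, against 5 and 4 with the block. Those that rose were CCNG2, a cyclin of arrested cells (log2 fold change 1.41 ± 0.28, adjusted p = 0.0106, but 0.0557 without N1), and the inhibitor CDKN1A (log2 fold change 0.78 ± 0.20, adjusted p = 0.0282, but 0.062 without N1, 0.0798 without N2 and 0.0845 without H1). Of 28 tested p53 targets 6 rose and 2 fell, against 11 and 4 with the block, and the number that rose was 1 without N1, 1 without N2, 1 without H1 and 2 without H3, and that of those that fell 0 without N1, 1 without N2, 4 without N3, 0 without H1, 1 without H2 and 0 without H3. Genes of homologous recombination and mismatch repair gave 2 and 1 of 38, against 8 and 8. Without the block the repair shares were below the ones of all genes, 11.2% and 9.12%, and repair genes that rose numbered 0 without N1, 0 without N2, 0 without H1 and 0 without H3, and those that fell 0 without N2, 2 without N3, 0 without H1 and 0 without H3.

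Several genes of the circadian clock rose strongly. Of 19 tested clock genes of 21 listed, 6 rose and none fell. BHLHE40, a repressor that HIF is known to induce, had 19.1, 16.7 and 21.5 CPM in normoxia and 221, 148 and 191 CPM in hypoxia (log2 fold change 3.29 ± 0.16, adjusted p = 6.07e-06), and its relative BHLHE41 had 0.456, 0.611 and 0.714 CPM in normoxia and 3.86, 4.54 and 3.24 CPM in hypoxia (log2 fold change 2.70 ± 0.24, adjusted p = 0.000156). RORA, a nuclear receptor of the clock, had 0.172, 0.191 and 0.147 CPM in normoxia and 4.15, 2.81 and 4.06 CPM in hypoxia (log2 fold change 4.42 ± 0.27, adjusted p = 1.65e-05). CIART, listed as C1orf51, rose by 2.89 ± 0.23 (adjusted p = 9.57e-05). All of these were near or below 1 CPM in normoxia except BHLHE40.

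In the MYC network 5 of 11 tested genes rose and 1 fell, against 6 and 2 with the replicate block, and 2 fell without N3. MXI1, which competes with MYC for its partner MAX, had 21.2, 19.4 and 25.7 CPM in normoxia and 84.1, 58.7 and 104 CPM in hypoxia (log2 fold change 1.89 ± 0.20, adjusted p = 0.000408), and MYC had 153, 178.9 and 125 CPM in normoxia and 249, 244 and 239.8 CPM in hypoxia (log2 fold change 0.68 ± 0.12, adjusted p = 0.0061). Both rose in the cells in which ribosome biogenesis genes fell. Histone and DNA demethylases, most of which need oxygen, rose in 7 of 27 and fell in 3, against 13 and 3 with the replicate block. KDM3A had 67.7, 62.2 and 70.8 CPM in normoxia and 238, 211 and 232 CPM in hypoxia (log2 fold change 1.76 ± 0.09, adjusted p = 6.07e-06), and KDM4B had 19.9, 16.8 and 15.4 CPM in normoxia and 48.5, 53.6 and 51.6 CPM in hypoxia (log2 fold change 1.56 ± 0.11, adjusted p = 4.49e-05). Both remove methyl groups from histone lysines, and their groups did not overlap. Demethylases that rose numbered 4 without N1, and those that fell 0 without N1 and 1 without H1. Splicing factors fell in 10 of 43 and rose in 1, against 23 and 4 with the block. The 1 that rose was the splicing kinase CLK3 (log2 fold change 0.48 ± 0.09, adjusted p = 0.00631). Splicing genes that fell numbered 1 without N1, 4 without N2, 2 without H1 and 5 without H3, and those that rose 3 without H2.

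Immediate early genes and inhibitors that feed back on growth factor signals both rose in part. Of 32 immediate early and AP-1 genes 16 rose and none fell, against 19 and 1 with the replicate block. FOS had 0.961, 0.789 and 1.11 CPM in normoxia and 2.83, 3.08 and 3.41 CPM in hypoxia (log2 fold change 1.70 ± 0.20, adjusted p = 0.000948), and MAFF had 9.37, 13.1 and 6.99 CPM in normoxia and 29, 27.9 and 19.1 CPM in hypoxia (log2 fold change 1.36 ± 0.24, adjusted p = 0.00557). Of 23 feedback inhibitors of MAP kinase signalling 5 rose and none fell, against 11 and 1. SPRY1, which blocks receptor tyrosine kinase signals, had 0.333, 0.242 and 0.295 CPM in normoxia and 7.45, 7.56 and 7.19 CPM in hypoxia (log2 fold change 4.67 ± 0.19, adjusted p = 1.92e-06). ERRFI1, which inhibits the EGF receptor, had 38.8, 39.6 and 37.4 CPM in normoxia and 119.98, 85.6 and 124 CPM in hypoxia (log2 fold change 1.51 ± 0.13, adjusted p = 0.00016), and the phosphatase DUSP1 rose by 1.09 ± 0.15 (adjusted p = 0.00219). SPRY1 and ERRFI1 did not overlap between groups, which the naming rule requires of members picked for the size of their change. The number of immediate early genes that rose was 10 without N1 and 9 without H1.

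Genes of insulin signalling and brakes on the growth kinase mTORC1 rose in part. Of 16 tested insulin and IGF genes of 20 listed 8 rose and none fell, against 9 and 1 with the replicate block. IRS2, the docking protein of the insulin receptor, had 8.6, 10.2 and 8.69 CPM in normoxia and 39.97, 29.3 and 35.8 CPM in hypoxia (log2 fold change 1.93 ± 0.14, adjusted p = 4.49e-05), and IGFBP3, which binds IGF outside the cell, had 25.5, 29.7 and 18.6 CPM in normoxia and 115, 86.3 and 115 CPM in hypoxia (log2 fold change 2.10 ± 0.18, adjusted p = 0.000132). Of 21 tested mTORC1 brakes and alpha-arrestins 11 rose and none fell, at a median of 0.35. DDIT4 (REDD1), which lowers mTORC1 activity, had 82.2, 87.7 and 132 CPM in normoxia and 635, 460.2 and 526 CPM in hypoxia (log2 fold change 2.43 ± 0.19, adjusted p = 8.9e-05). The arrestins TXNIP and ARRDC3, which limit glucose uptake, rose by 1.69 ± 0.15 and 2.04 ± 0.35 (adjusted p = 0.000188 and 0.00544). SESN2, a leucine sensor, had 18.7, 20.5 and 24.7 CPM in normoxia and 52.6, 43.9 and 51.4 CPM in hypoxia (log2 fold change 1.21 ± 0.12, adjusted p = 0.000387). The counts that rose were 6 without N1, 7 without N2 and 6 without H1 for the brakes, and 5 without N1 and 5 without H1 for the insulin and IGF genes.

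Developmental pathways gave smaller counts. Of all genes, 11.2% rose and 9.12% fell, or 21% and 21.6% with the block. Notch genes rose in 5 of 18 tested and fell in none, with a share of induced members above the 11.2% of all genes, although the count was 1 without N1, 3 without N2 and 2 without H1. TGF-beta and BMP targets rose in 8 of 28 and fell in 3, against 13 and 4 with the replicate block. The 8 include BMP6, which had 15, 6 and 1 counts in normoxia and 45, 45 and 55 in hypoxia. BMP6 passed the filter on low counts only through its hypoxic samples. ID3, a BMP target, had 64.9, 75.7 and 45.6 CPM in normoxia and 19.4, 37.5 and 20.4 CPM in hypoxia (log2 fold change -1.27 ± 0.26, adjusted p = 0.0118, but 0.0505 without N1 and 0.0542 without H1), while the BMP antagonist NOG had 2.65, 3.4 and 1.38 CPM in normoxia and 7.91, 7.47 and 6.38 CPM in hypoxia (log2 fold change 1.55 ± 0.28, adjusted p = 0.00688). Targets of YAP and TEAD rose in 5 of 29 (17.2%) and fell in none, against 10 and 2. Their classical member CTGF had 139.5, 204 and 111 CPM in normoxia and 159, 219 and 145 CPM in hypoxia and was not called (0.21 ± 0.22, adjusted p = 0.541; with the block, adjusted p = 0.0163). Wnt genes rose in 5 of 25 (20%) and fell in 1 (4%), against 7 and 3. The 5 include NKD2, which had 0, 0 and 6 counts in normoxia and 20, 21 and 10 in hypoxia. NKD2 passed the filter on low counts only through its hypoxic samples. The receptor FZD1 had 10.5, 9.94 and 10.2 CPM in normoxia and 19.2, 19.1 and 19.2 CPM in hypoxia (log2 fold change 0.90 ± 0.10, adjusted p = 0.000547). Counts that rose were 5 without N1, 4 without N2, 4 without H1 and 4 without H3 for TGF-beta and BMP, 2 without N1 and 3 without H1 for YAP, and 2 without N1, 2 without N2, 2 without H1 and 3 without H2 for Wnt. Counts that fell were 1 without N1 and 1 without H1 for TGF-beta and BMP, and 0 without N1, 0 without N2, 0 without H1, 2 without H2 and 0 without H3 for Wnt.

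Signals to vessels were induced over a wide range of levels. Of 25 tested angiogenic and vasoactive genes of 31 listed 12 rose and 4 fell, at a median of 0.71. VEGFA, the main endothelial growth factor, had 36.9, 38.5 and 39.8 CPM in normoxia and 137, 109.6 and 132 CPM in hypoxia (log2 fold change 1.72 ± 0.10, adjusted p = 1.06e-05). STC1, a secreted glycoprotein made in the kidney, had 0.394, 0.369 and 0.997 CPM in normoxia and 41.3, 32.8 and 42.5 CPM in hypoxia (log2 fold change 6.03 ± 0.33, adjusted p = 8.71e-06). ANGPTL4, an inhibitor of lipoprotein lipase, had 3, 0 and 0 counts in normoxia and 223, 163 and 106 counts in hypoxia. Its normoxic level lay at the floor of 3 counts, so its fitted fold change is not given as a size. ANGPTL4 passed the filter on low counts only through its hypoxic samples. For each of these genes every hypoxic sample lay above every normoxic one. ADM, a vasodilator peptide, had 20.8, 23.6 and 12.2 CPM in normoxia and 61, 68.5 and 59.8 CPM in hypoxia (log2 fold change 1.74 ± 0.21, adjusted p = 0.000942), and FGF11, an intracellular member of the fibroblast growth factor family, had 3.77, 3.48 and 6.63 CPM in normoxia and 47, 45.7 and 49.2 CPM in hypoxia (log2 fold change 3.35 ± 0.23, adjusted p = 3.32e-05). SEMA3A, a guidance cue that restrains vessel sprouting, had 6.21, 4.23 and 6.52 CPM in normoxia and 2.18, 1.41 and 2.19 CPM in hypoxia and fell (log2 fold change -1.55 ± 0.24, adjusted p = 0.00311). EDN1, the vasoconstrictor endothelin, gave 1.02 ± 0.37 and was not called (adjusted p = 0.0813; with the block 0.00794). Reductions numbered 1 without N1, 1 without N2, 2 without H1 and 2 without H3.

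Enzymes that modify collagen rose in part, as did some collagens. Of 18 tested collagen hydroxylases and lysyl oxidases of 19 listed 9 rose and 1 fell, against 11 and 3 with the replicate block, at a median of 0.46. P4HA1, a catalytic subunit of prolyl hydroxylase, had 111, 95.8 and 115 CPM in normoxia and 386, 333 and 370.3 CPM in hypoxia (log2 fold change 1.76 ± 0.10, adjusted p = 9.65e-06). LOX, which crosslinks collagen, had 31.7, 34.8 and 30.7 CPM in normoxia and 158, 144 and 143 CPM in hypoxia (log2 fold change 2.19 ± 0.08, adjusted p = 1.8e-06), and LOXL2 rose by 1.19 ± 0.07 (adjusted p = 1.65e-05). The lysyl hydroxylase PLOD2 rose by 0.89 ± 0.09 (adjusted p = 0.000377). Among 31 tested collagens, laminins and basement membrane genes 8 rose and none fell, against 14 and 2. The 8 included chains of fibrillar and of membrane-bound collagen. COL5A1, a fibrillar collagen, had 40.2, 35.1 and 49.96 CPM in normoxia and 95.6, 88.1 and 101 CPM in hypoxia (log2 fold change 1.18 ± 0.13, adjusted p = 0.000483). Integrins rose in 4 of 16 and fell in none, against 7 and none, with ITGA5, the fibronectin receptor, at 130.5, 149 and 141 CPM in normoxia and 280.1, 279 and 283 CPM in hypoxia (log2 fold change 1.00 ± 0.08, adjusted p = 7.33e-05). Of 25 tested genes of the plasminogen system and metalloproteinases 4 rose and 1 fell, against 8 and 1. MMP24, a membrane-bound metalloproteinase, had 30.4, 27.6 and 40.8 CPM in normoxia and 70.6, 71.8 and 80.8 CPM in hypoxia (log2 fold change 1.18 ± 0.14, adjusted p = 0.000942). The number that rose was 5 without N2 and 5 without H1 for collagens, 2 without N1, 2 without H1 and 2 without H2 for integrins, and 2 without N1 and 2 without H1 for the plasminogen list. The 1 collagen enzyme and the 1 plasminogen gene that fell were not called without N1, N2, H1 or H3.

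Mesenchymal transition genes rose in 6 of 23 tested and fell in 2. The former count was 3 without N1, the latter 0 without N1, 1 without N2, 1 without N3, 0 without H1 and 0 without H3. TGFBI, a matrix adaptor, had 278, 291 and 278 CPM in normoxia and 522, 513 and 456 CPM in hypoxia (log2 fold change 0.82 ± 0.08, adjusted p = 0.000344). The transition factor SNAI1 had 4.99, 5.78 and 4.73 CPM in normoxia and 4.79, 5.09 and 3.41 CPM in hypoxia and was not called (-0.22 ± 0.18, adjusted p = 0.427). FN1, fibronectin, gave 0.42 ± 0.17 (adjusted p = 0.11; with the replicate block 0.000854). Of 29 tested junction and polarity genes of 38 listed 3 rose and 1 fell, against 5 and 6 with the block. Junction genes that rose numbered 0 without N1, 1 without N2, 1 without H1 and 1 without H3, and those that fell 0 without H1 and 2 without H2. CDH1, E-cadherin, was at 0.751, 0.522 and 2.15 CPM in normoxia and 0.504, 0.454 and 0.602 CPM in hypoxia, and its change of -1.14 ± 0.50 was called with the block alone (adjusted p = 0.133; with the block 0.0497).

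A lineage factor of the renal epithelium was present, but markers of apical transport were at or near 0, so the line is called here by its name and not by its segment. This factor, PAX8, had 181, 186 and 141 CPM in normoxia and 165, 158 and 134 CPM in hypoxia and was not called (-0.16 ± 0.12, adjusted p = 0.397). Of 29 lineage factors 14 were tested, 2 rose and 1 fell, and HNF4A, which defines the mature proximal tubule, and PAX2 had at most 4 counts in any sample. None of these was called without N1, N2, H1 or H3, and 1 induction was called without N3 and 1 without H2. Of 31 proximal tubule markers 8 passed the filter on low counts. LRP2, the endocytic receptor megalin, had at most 1 count, SLC34A1, the phosphate transporter, at most 4, and SLC22A6 and SLC5A1, carriers of organic anions and glucose, had none. CUBN, the partner of megalin, had 5, 5 and 2 counts in normoxia and 24, 68 and 34 counts in hypoxia. It passed the filter only through its hypoxic samples, so no test of it is given. GATM, the first enzyme of creatine synthesis, had 10.4, 12.8 and 12.6 CPM in normoxia and 20.8, 21.3 and 19 CPM in hypoxia (log2 fold change 0.77 ± 0.12, adjusted p = 0.00313). Of 23 distal and collecting duct markers 6 were tested and 1 rose (2 with the block), GATA3 (0.83, adjusted p = 0.0427), a call that was lost in every omission of a sample. UMOD and AQP2 had no counts.

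Genes of injured tubules and of the cilium changed in single members. Of 24 tested injured tubule genes of 30 listed 7 rose and 1 fell, against 9 and 4 with the replicate block, and 2 rose without N1 or H1. HAVCR1 (KIM-1), the classical injury marker, had 18, 17.7 and 25.7 CPM in normoxia and 25.6, 22.4 and 26.2 CPM in hypoxia and was not called (0.27 ± 0.15, adjusted p = 0.234; with the block 0.0296). ITGB8, an integrin that activates TGF-beta, had 42.1, 39.6 and 47.8 CPM in normoxia and 119, 100 and 123 CPM in hypoxia (log2 fold change 1.40 ± 0.11, adjusted p = 6.68e-05). DCDC2, a protein of microtubules, fell from 253, 240.5 and 221 to 157, 139.9 and 141 CPM (log2 fold change -0.70 ± 0.08, adjusted p = 0.000984). Of 44 tested cilium and polycystic disease genes 4 rose and 1 fell, against 5 and 8 with the block, which without the block was below the share of all genes in both directions. PKD1, the gene of dominant polycystic disease, was one that rose, with 38.4, 31.2 and 23.8 CPM in normoxia and 57.9, 64.6 and 51.4 CPM in hypoxia (log2 fold change 0.90 ± 0.16, adjusted p = 0.00691). It has near-identical pseudogene copies, so its counts are uncertain. Cilium genes that rose numbered 2 without N1 and 2 without H1, and those that fell 0 without N1, 3 without N3 and 0 without H1.

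Control of pH changed at surface carbonic anhydrases. CA9 (chromosome 9, 35673925-35681156, plus strand), whose promoter stretch is printed above, had 6.92, 4.71 and 4.86 CPM in normoxia and 161, 189.9 and 147 CPM in hypoxia (log2 fold change 4.92 ± 0.18, adjusted p = 1.8e-06), and every hypoxic sample lay far above every normoxic one. CA12 had 64.7, 66.5 and 53.1 CPM in normoxia and 112, 125 and 103 CPM in hypoxia (log2 fold change 0.88 ± 0.11, adjusted p = 0.00111). FXYD2, a subunit of the tubular sodium pump, had 1, 0 and 0 counts in normoxia and 30, 38 and 34 counts in hypoxia, and its normoxic level was at the floor. It passed the filter on low counts only through its hypoxic samples. Of 22 tested members of 27 listed 4 rose, FXYD2 among them, and none fell, against 6 and 2 with the replicate block.

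The mitophagy receptors BNIP3 and BNIP3L rose, while most core autophagy genes did not pass the test. FUNDC1, another mitophagy receptor, fell (log2 fold change -0.35 ± 0.09, adjusted p = 0.0279). BNIP3 (chromosome 10, 133781188-133795471, minus strand), a receptor on damaged mitochondria, had 138, 109 and 125 CPM in normoxia and 829, 788 and 778 CPM in hypoxia (log2 fold change 2.69 ± 0.10, adjusted p = 1.8e-06). BNIP3L, its relative, had 123, 103 and 166 CPM in normoxia and 503, 422 and 583 CPM in hypoxia (log2 fold change 1.94 ± 0.18, adjusted p = 0.000229). Of 39 tested members of 41 listed 6 rose and 5 fell (15.4% and 12.8%), against 11 and 7 with the replicate block. Of all genes, 11.2% rose and 9.12% fell without the block. Members that rose numbered 3 without N2 and 3 without H1, and those that fell 0 without N1, 0 without N2, 0 without H1 and 1 without H3. BCL2 family genes rose in 2 of 15 tested and fell in 2, and none of these was called without N1, N2, H1 or H3.

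Of 32 tested antioxidant genes under NRF2 of 37 listed, 7 fell and 3 rose, against 12 and 3 with the replicate block. GCLM, which limits glutathione synthesis, had 106, 91.2 and 85.1 CPM in normoxia and 52.3, 49.98 and 39.9 CPM in hypoxia (log2 fold change -0.99 ± 0.12, adjusted p = 0.00112), and HMOX1, heme oxygenase, had 8.26, 8.94 and 10.1 CPM in normoxia and 5.14, 5.5 and 4.59 CPM in hypoxia (log2 fold change -0.84 ± 0.14, adjusted p = 0.00457). NQO1, a quinone reductase, fell by 0.65 on the log2 scale (adjusted p = 0.0275, but 0.0614 without N2, 0.101 without H1 and 0.0704 without H3). SLC7A11, a shared target with ATF4, was one of the 3 that rose. The number that fell was 4 without N1, 4 without N2, 4 without H1 and 4 without H3. Iron and heme genes gave 4 up and 3 down of 18 tested, against 6 and 5 with the block. The 4 up include BMP6, which passed the filter on low counts only through its hypoxic samples. Those up numbered 2 without N1, 1 without H1 and 2 without H3, and those down 1 without N1, 1 without N2 and 1 without H1. TFRC, the transferrin receptor, had 1190.5, 1190.3 and 798 CPM in normoxia and 1512, 1582 and 1272 CPM in hypoxia and was not called in edgeR without the block (0.46 ± 0.16, adjusted p = 0.0684), but was called with it (adjusted p = 0.000405) and by DESeq2 without it (adjusted p = 0.0202).

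Without the replicate block, immune genes were called at shares below those of all genes. With it, 21% of all genes rose and 21.6% fell. The share of interferon genes that rose was then close to that of all genes. The shares of cytokines that rose and of interferon genes that fell were above. Cytokines and NF-kappaB targets rose in 2 of 30 tested of 42 listed and fell in 1, against 8 and 2 with the replicate block. The 2 that rose were IL6 and IL6ST. IL6 had 13, 15 and 21 counts in normoxia and 48, 50 and 80 in hypoxia (log2 fold change 1.85 ± 0.37, adjusted p = 0.0103). IL6ST, a receptor subunit, rose by 0.42 ± 0.09 (adjusted p = 0.0149). IL18, a cytokine of injured tubules and the 1 member that fell without the block, had 34.1, 36.1 and 30.7 CPM in normoxia and 20.2, 25.5 and 20.9 CPM in hypoxia (log2 fold change -0.60 ± 0.12, adjusted p = 0.00865). Interferon-stimulated and MHC class I genes rose in 3 of 47 and fell in 2, against 10 and 12. The 3 include MX2, which had 8, 2 and 7 counts in normoxia and 40, 45 and 38 in hypoxia. MX2 passed the filter on low counts only through its hypoxic samples. ISG20, an exonuclease, was one that rose, with 0.936, 0.687 and 1.31 CPM in normoxia and 3.46, 4.4 and 4.2 CPM in hypoxia (log2 fold change 2.03 ± 0.25, adjusted p = 0.00111). Cytokine genes that rose numbered 0 without N1 and 1 without H1, interferon genes that rose 7 without N3, and those that fell 0 without N1 and 0 without H1.

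Most defining markers of other cell types were at or near 0. PECAM1 and KDR of endothelium, CD3E of lymphocytes, and NPHS1 of podocytes had no counts, and ALB of hepatocytes had at most 3. Summed over the list, endothelial markers gave 1.82 to 2.61 CPM in normoxia and 2.96 to 4.28 in hypoxia, with 2 of 3 tested genes up. Those 2 were VWF and TEK, with 0 to 14 counts in normoxia and 13 to 55 in hypoxia, and neither was called without N1 or H1. TEK passed the filter only through hypoxic samples. Fibroblast and smooth muscle markers gave 12.3 to 22.6 and 24.5 to 26.7 CPM, and the 1 of 5 that rose was PDGFRB (log2 fold change 1.24 ± 0.23, adjusted p = 0.00768), while with the block 1 fell. Leukocyte markers summed to 8.62 to 10.3 and 6.85 to 10.9 CPM, with CD14 down. Podocyte markers summed to 114 to 129.7 and 130.4 to 133 CPM, with SYNPO up, but neither CD14 nor SYNPO was called without N1, N2, H1 or H3, and SYNPO was not called without H2 either. Hepatocyte markers stayed under 1 CPM in sum, and 1 of 8 was tested and not called. The part of other cells in any list was not tested.

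Outside the lists, further genes changed strongly. NDRG1, a stress-responsive gene of differentiation, had 23.1, 24 and 37.5 CPM in normoxia and 914, 582 and 727 CPM in hypoxia (log2 fold change 4.72 ± 0.24, adjusted p = 6.84e-06). PPFIA4, a liprin of the cell cortex, had 1.8, 1.46 and 2.55 CPM in normoxia and 40.3, 32.1 and 37.5 CPM in hypoxia (log2 fold change 4.24 ± 0.20, adjusted p = 6.07e-06). For both genes the groups did not overlap, and H1 was the highest sample. MIR210HG, the host transcript of a microRNA, had 1.72, 0.84 and 1.73 CPM in normoxia and 14.7, 10.9 and 15.4 CPM in hypoxia (log2 fold change 3.25 ± 0.27, adjusted p = 0.000124). PRSS8, the protease prostasin that activates the epithelial sodium channel, had 2.72, 2.25 and 4.97 CPM in normoxia and 29.4, 31 and 35.1 CPM in hypoxia (log2 fold change 3.26 ± 0.27, adjusted p = 0.000106). TMEM45A and SPAG4 rose by 3.04 ± 0.12 and 3.25 ± 0.17 (adjusted p = 1.92e-06 and 6.84e-06). For all of these genes the lowest hypoxic sample lay above the highest normoxic one. INHBE, an activin subunit, had 0.8, 1.35 and 7.95 CPM in normoxia and 38.9, 29.6 and 74.7 CPM in hypoxia (log2 fold change 3.81 ± 0.75, adjusted p = 0.00923), with N3 and H3 the highest of their groups as for ASNS. Reductions outside the lists were smaller. S1PR1, a receptor for sphingosine phosphate, had 15.4, 12 and 14.2 CPM in normoxia and 5.57, 5.33 and 4.44 CPM in hypoxia (log2 fold change -1.44 ± 0.15, adjusted p = 0.000373). SPNS2, which exports that lipid, rose in contrast, from 1.67, 2.11 and 1.22 to 8.33, 9.68 and 7.85 CPM (log2 fold change 2.37 ± 0.21, adjusted p = 0.000165). KLHL4 had 12, 12 and 14.7 CPM in normoxia and 3.44, 4.51 and 6.42 CPM in hypoxia (log2 fold change -1.43 ± 0.22, adjusted p = 0.00308), and RNF145, a ubiquitin ligase of sterol control, had 170.3, 167 and 169.2 CPM in normoxia and 73, 92.6 and 86.3 CPM in hypoxia (log2 fold change -1.01 ± 0.09, adjusted p = 0.000232).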

How the data were processed

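PolyA+ RNA of normoxic and hypoxic HKC-8 cells was sequenced in 3 samples per condition, each split over 2 lanes. According to the submitters' processing notes and the study's methods, the authors trimmed reads (Trim Galore 0.3.3), aligned them to GRCh37 (TopHat 2.0.8b, Bowtie 1.0.0), removed fragments without a unique position and counted reads per gene (HTSeq 0.5.4p3). The deposited values are these raw counts per gene, without normalization. Genes with near-identical copies or overlapping neighbours are therefore undercounted, and whether strand was used is not given in the sources used here. Samples of other cell lines were not used.

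From the counts, genes were kept by filterByExpr (13536 of 23106), scaled by TMM and compared by glmQLFit and glmQLFTest (edgeR 4.0.16, R 4.3.3), with Benjamini-Hochberg adjustment over all tested genes. DESeq2 1.42.0 was an alternative, as were other size factors, library totals, other low-count filters, blocking on the replicate number, and omission of single samples. Depth was 75441764 to 97984260 counts, so 3 counts, taken as the floor, are 0.0306 to 0.0398 CPM, which covers counting error only. Replicate libraries were distinct (chi-square per degree of freedom 32.9 to 91.5). The labels number replicates 1 to 3 in both groups. Whether equal numbers pair samples was checked by the correlation over genes of their departures from the group mean, which was 0.10, 0.41 and 0.42 for replicates 1, 2 and 3 and from -0.44 to 0.11 between unequal numbers. Every equal-numbered pair was over 0.1, so the numbers were taken to pair the samples. For replicate 1 this is weak, as N1 correlated as much with H2 (0.11) as with H1. On simulated counts of 13433 genes, with 195 changed by 1.5 on the log2 scale, the edgeR test recovered 94.4%, and 4.66% of its calls were false. The simulated samples were not paired, and no gene had a smaller change. These rates therefore do not cover the shallow changes or the paired samples of the data.

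Members and lists were chosen with earlier results of these data known. Genes named were the defining genes of each list, up to 3 members per direction with the largest change among called, non-overlapping ones, and, outside the lists, up to 12 per direction with a mean of at least 5 CPM called with and without the block. For list members picked by size, the lack of overlap between groups was thus fixed by the rule. About 100 were planned, and 140 tested genes are named by this rule with values. NKD2, BMP6, MX2, FUNDC1, GYG1, IL6 and IL6ST are named by it as well. They are not among the 140, nor in the counts of named genes given below. Some genes that the rule names are not reported here. Marker genes outside it are given by their counts. Promoter sequences matched 77.6% of the genes tested, too few to compare sets, so no shares of called genes are given. Gene positions are those of GENCODE on GRCh37. Figures and list counts used Python 3.11.15.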

Additional observations from a re-analysis of the deposited data

How the results depend on the processing

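With blocking on the replicate number, 2836 genes rose and 2919 fell, and DESeq2 with the same block gave 2580 and 2763, against 1522 and 1235 without pairing. The estimated spread was 0.135 without the block and 0.0774 with it (biological coefficient of variation). The block ended no call and turned no direction among the 127 named genes called without it, and the calls of named genes that it added, and the list counts that it moved by over 1.5 times, are given beside those results. When single samples were left out, 687 to 1794 genes rose and 326 to 1489 fell, and among changes of at least 2-fold 352 to 705 rose and 18 to 52 fell. These fits hold fewer samples. The lowest counts came without N1 or H1. DESeq2 without the block gave 1885 and 1634 genes, the other scalings and filters 1375 to 1558 that rose and 1154 to 1249 that fell. The motif comparisons were not run, because too few promoters matched. Of the named genes called, 14 lost the call when at least 1 sample was omitted, 11 of them without N1 and 10 without H1. The oxygen level differs between labels and titles, and the depth per sample leaves genes under about 3 counts undetermined.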
